A study of Homo sapiens with 26 samples.

Results

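Collagen chain genes were examined in mRNA-seq data from KYSE180, TE6 and KYSE150, 3 established cell lines of human esophageal squamous cell carcinoma (ESCC). Members were all gene symbols built as COL, a number, A and a number, with the hemidesmosomal chain gene COL17A1 left out, which gave 43 of the 26485 symbols in each of 5 tables. They were grouped into 11 fibrillar chains (types I, II, III, V, XI, XXIV and XXVII), 9 chains of the basement membrane zone (types IV, VII, XV and XVIII) and 23 other chains. The study asked how the bromodomain protein BRDT and the squamous transcription factor p63, encoded by TP63, direct transcription in ESCC.

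KYSE180 and TE6 express BRDT, a gene otherwise used in male germ cells, and KYSE150 served as a line with very little of it. In KYSE180, 3 libraries from cells given a control small interfering RNA (siCont) were compared with 3 given an siRNA against BRDT (siBRDT). A separate KYSE180 experiment had 2 siCont libraries and 2 libraries with an siRNA against TP63 (siTP63). TE6 had 2 siCont, 2 siBRDT and 2 siTP63 libraries in 1 table, so both TE6 comparisons share their controls. KYSE150 had 2 siCont and 2 siTP63 libraries, and in another experiment 3 libraries from cells carrying a BRDT expression plasmid (BRDT-OE) and 3 libraries of cells with a control vector (cont). Knockdown cells were collected 48 h after transfection. The overexpression is a transient introduction of a plasmid, and no label says whether replicates came from separate cultures, so p-values measure the spread between these libraries, which may be technical.

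Collagens are triple helices of 3 chains that share a short repeat that begins with glycine. Fibrillar collagens form the cross-banded fibres of connective tissue, type IV collagen forms the sheet-like network of basement membranes, and type VII collagen builds the anchoring fibrils that tie the basement membrane of stratified epithelia such as that of the esophagus to the tissue beneath. Many molecules are heterotrimers, so that a chain without its partner gene is not secreted as the usual molecule. Type IV chain genes lie in head-to-head pairs whose transcription starts face away from each other across a short stretch of DNA, which is well known for COL4A1 with COL4A2 and for COL4A5 with COL4A6. Fibroblasts make most fibrillar collagen in tissue, while squamous epithelial cells make type IV, VII and XVIII chains.

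The stretches ahead of the starts of the paired type IV genes and of COL7A1 are shown because the fold changes below turn on these genes. They were read from RefSeq's start windows (GRCh38.p14), of which 31 of the 43 members had at least 1, and none overlaps an annotated exon. Capitals mark the GC box (GGGCGG) and the CCAAT box (CCAAT) on either strand. The first stretch lies between the starts of COL4A1 and COL4A2, which are 127 bases apart (chr13:110307158-110307257, plus strand). The next is the upstream stretch of COL4A5 (chrX:108439688-108439837, plus strand), followed by those of COL4A6 (chrX:108439498-108439647, minus strand) and COL7A1 (chr3:48595330-48595479, minus strand).
COL4A1_COL4A2_between_starts: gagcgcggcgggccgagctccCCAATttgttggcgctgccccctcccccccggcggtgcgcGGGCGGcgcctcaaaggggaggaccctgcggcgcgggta
COL4A5_upstream: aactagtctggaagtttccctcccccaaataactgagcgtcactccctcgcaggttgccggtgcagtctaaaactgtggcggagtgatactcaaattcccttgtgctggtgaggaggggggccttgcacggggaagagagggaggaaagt
COL4A6_upstream: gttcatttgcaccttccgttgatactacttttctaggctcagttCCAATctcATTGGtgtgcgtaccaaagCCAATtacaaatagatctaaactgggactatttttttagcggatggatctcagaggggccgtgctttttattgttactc
COL7A1_upstream: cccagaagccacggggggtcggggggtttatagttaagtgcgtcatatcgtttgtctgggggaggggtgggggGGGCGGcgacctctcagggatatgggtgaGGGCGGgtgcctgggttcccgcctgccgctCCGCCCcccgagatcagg
The COL4A1 and COL4A2 stretch is 78% G and C with 1 GC box and 1 CCAAT box. That of COL4A5 has neither box, that of COL4A6 has 3 CCAAT boxes and no GC box, and that of COL7A1 has 3 GC boxes and no CCAAT box. The nearer start of COL4A6 is 380 bases from that of COL4A5 and another COL4A6 start is 1416 bases from it. Over all 35116 windows of 250 bases before to 50 bases after a start, 45% held a GC box, 34.6% a CCAAT box and 11.5% a TATA box (TATAAA), so such matches are common. The stretches shown are shorter than these windows. In its whole window COL4A5 had 2 CCAAT boxes, and COL7A1 had 1 TATA box, which is not marked above. A match is a description of letters and not evidence of binding.

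In GENCODE 44 (hg38) COL4A1 spans chr13:110148963-110307157, minus strand, and COL4A2 chr13:110305812-110513209, plus strand, so that the genes overlap at their starts. COL4A5 spans chrX:108439838-108697545, plus strand, and COL4A6 chrX:108155607-108439497, minus strand. COL7A1 lies at chr3:48564073-48595329, minus strand, and COL18A1 at chr21:45405165-45513720, plus strand. Of the fibrillar chains described at length, COL5A1 lies at chr9:134641803-134844843, plus strand, COL5A2 at chr2:189031898-189225312, minus strand, and COL27A1 at chr9:114155537-114312511, plus strand. COL12A1 lies at chr6:75084326-75206267, minus strand, and COL9A2 at chr1:40300489-40317813, minus strand.

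Total reads ranged from 7582089 to 19372441 per library, and a gene at 0 reads can still have had up to 3, which equals a normalised value of 1.99 to 4.72. Each value is a read count scaled by the size factor of its library, and each table has its own scaling. The targeted genes moved as labelled. BRDT changed by a log2 fold change of -2.75 under siBRDT in KYSE180, -2.23 in TE6 and 10.60 with BRDT-OE, and TP63 by -1.70, -4.45 and -2.34 under siTP63 in KYSE180, TE6 and KYSE150 (limma, adjusted p of 2.6e-10, 1.7e-06, 3.4e-09, 4.9e-10, 1.3e-10 and 0.082, the last past the threshold only in other settings). siBRDT also lowered TP63, with -0.58 in KYSE180 and -1.15 in TE6 (adjusted p of 8.8e-06 and 2e-05). Markers matched an epithelial origin, with all 8 squamous and all 4 epithelial markers at a mean of 10 or more in every table. The squamous sum was 89061 to 98586.5 with siCont and 50999 to 55208 with siBRDT in KYSE180. With siTP63 it was 63563 to 67787 there, beside 143289 to 155839 with siCont. In TE6 it was 85546 to 88597.5 with siCont, 57102 to 60928 with siBRDT and 20573 to 21939 with siTP63. KYSE150 had 29008 to 40051 with siCont and 12603 to 15084 with siTP63. BRDT-OE had 25938 to 27958.5 and cont 19986 to 24142. Of 7 fibroblast markers, LUM and FBLN1 reached a mean of 10 in KYSE180 (siBRDT experiment), TE6 and KYSE150 (siTP63 experiment) and FBLN1 alone in the others. Of 4 endothelial markers, CDH5 alone reached it in KYSE150 (siTP63 experiment) and VWF alone in the others. Of 4 leukocyte markers, only CD14 reached it, in KYSE150 (siTP63 experiment). siBRDT replicate 1 stood apart in both BRDT-positive lines, with 20995 genes above 0 in TE6, where the other TE6 libraries had 16458 to 17569, and with 18972 in KYSE180 against 17187 to 17778. All 43 members had reads in that TE6 library and 32 to 37 in the other 5. Calls named below that were lost without one of these libraries are given with that value. These are bulk samples, in which a lower value in all cells and fewer cells making a transcript cannot be told apart.

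Each line expressed its own set of chains. The minimum mean of 10 set for a table was reached by 26 members in the KYSE180 siBRDT experiment, 25 in the KYSE180 siTP63 experiment, 23 in TE6, 18 in KYSE150 with siTP63 and 19 in the KYSE150 overexpression experiment. A total of 16 members passed in every table, 31 in at least 1 and 12 in none. Of those in none, 1 is fibrillar (COL2A1), COL4A3 and COL15A1 belong to the basement membrane zone and 9 are other chains. Just inside and just outside the minimum were COL9A3 (14.7) and COL13A1 (7.26) in the KYSE180 siBRDT table, COL4A4 (23.6) and COL4A3 (6.27) in the KYSE180 siTP63 table and COL23A1 (10.8) and COL20A1 (9.54) in TE6. In KYSE150 they were COL5A2 (15.7) and COL13A1 (5.17) with siTP63 and COL13A1 (28.5) and COL11A1 (8.36) in the overexpression table.

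Basement membrane chains were among the highest members in the controls of every experiment. Per kilobase of transcript, the mean normalised value in siCont KYSE180 of the siBRDT experiment was 520.2 for COL4A2, 387 for COL4A1 and 265 for COL18A1, with the fibrillar chain COL5A2 next at 263. COL18A1 and COL5A2 overlapped between libraries in this order. In the other KYSE180 siCont group the order was COL7A1 (388), COL18A1 (374), COL26A1 (263) and COL4A2 (257), with overlap between the first 2 and between the last 2. In siCont TE6 the order was COL7A1 (401), COL4A2 (278), COL4A1 (274) and COL18A1 (246), and the values of COL4A1 overlapped those of COL4A2 and, barely, those of COL18A1. In siCont KYSE150 the order was COL9A3 (344), a type IX chain best known from cartilage, COL18A1 (316) and COL7A1 (167), and COL9A3 and COL18A1 overlapped. In the cont libraries of KYSE150 COL18A1 (280.3) and COL4A2 (274) stood before COL9A3 (245), and COL4A2 overlapped both. Levels set across tables come from separate normalisations.

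Partner chains were often missing. COL1A1, the major chain of type I collagen, had values of 613 and 543 in siCont KYSE180 of the siTP63 experiment and 292 and 245 in siCont TE6. Its partner COL1A2 had 2 reads at most in those 4 libraries, but 134, 162 and 117 reads in the 3 siCont libraries of the siBRDT experiment. The same line thus gave a COL1A2 value of 134 ± 26.6 (SD, n = 3) in 1 experiment and 1.81 ± 0.340 (SD, n = 2) in the other. COL6A1 and COL6A2, chains of the beaded filaments of type VI collagen, reached 446 ± 22.4 and 174 ± 27.7 in siCont TE6 (SD, n = 2 each), while the other type VI chain genes COL6A3, COL6A5 and COL6A6 had at most 7, 4 and 6 reads in any of the 26 libraries. COL9A1, the partner of COL9A2 and COL9A3, had at most 1 read.

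The KYSE180 controls of the 2 experiments also differed in the chains described below. COL4A1 was 2440.2, 2463 and 2688 in the 3 siCont libraries of the siBRDT experiment and 676 and 611 in the 2 of the siTP63 experiment, and COL4A5 was 1463, 1483 and 1543 against 596 and 573. COL7A1 went the other way, with 1877, 1761 and 1861 against 4031 and 3139. TP63 itself was 9400, 9933 and 10366 in siCont of the siBRDT experiment and 2573 and 3035 in siCont of the siTP63 experiment. The latter values were under the 5924, 6724 and 7223 of the siBRDT libraries, so the KYSE180 siTP63 comparison starts from controls with less TP63. The 2 experiments were scaled separately, and experiment and cell state cannot be told apart in these values. The ratio of COL4A1 to COL4A2 within a library does not depend on the size factor, and it differed too, as given below.

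In order to compare treated with control cells, a gene was called when its log2 fold change was 0.5 or more in either direction with a limma adjusted p under 0.05. Fold changes are on the log2(value + 1) scale, which understates those of low genes. Over the 6 comparisons with controls 26 of the 31 measured members were called at least once, 11 of them lower in every comparison that called them, 7 higher and 8 in both directions. These 26 were 8 fibrillar, 7 basement membrane zone and 11 other chains. The share of all genes called at least once was not counted. In the single comparisons with calls, 26.5% to 49.3% of all genes were called, so a high count of members is no result about collagens. In KYSE180, siBRDT lowered 12 of 26 tested members and raised 3, while 15.8% of all 13589 genes tested were lower and 14.5% higher (30.3% called). The median log2 fold change was -0.50 over the members and -0.01 over all genes. Without siBRDT replicate 1 the counts were 14 lower and 3 higher, with all 15 of the full set among them. In TE6, siBRDT lowered 6 of 23 and raised 0, against 18.1% lower and 15.6% higher (33.7% called) among all 13333 genes, with medians of -0.27 and -0.04. Without siBRDT replicate 2 the TE6 calls were 10, of which 6 were lower and 4 higher. Without siBRDT replicate 1 there were 5 lower and 1 higher, 4 of these 6 shared with the full set, and without either siCont library 4 were called. With no filter on low values 1 member was higher. Rescaling TE6 to upper quartiles left 4 lower and 0 higher, and moved the share of falls among all called genes from 53.8% to 41.4% and the median of all genes tested from -0.04 to 0.06.

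siTP63 moved members both ways. In KYSE180 it lowered 5 of 25 and raised 8, against 25.7% lower and 23.6% higher among all 13924 genes, with medians of 0.22 and 0.00. The share of members called there, 52%, was near the 49.3% of all genes. The size factors there were 0.64 and 0.97 for siCont libraries of 11003762 and 16134477 reads. They were 1.30 and 1.26 for siTP63 libraries of 15747813 and 14445131 reads. Scaling by total reads would thus raise every siTP63 fold change in KYSE180, and calls on that scale were not made. With upper-quartile rescaling 4 members were lower and 9 higher. In TE6 siTP63 lowered 5 of 23 and raised 4, shares near the 20.6% and 18.3% (38.9% called) of all genes. In KYSE150 siTP63 called 0 of 18 members (0% of 12335 genes). BRDT-OE in KYSE150 lowered 7 of 19 and raised 3, against 16% lower and 10.5% higher (26.5% called) among all 12765 genes, with medians of -0.23 and 0.02. The summed value of the 7 fibroblast markers was 1359.8 to 1486 in siCont and 814 to 893 in siBRDT libraries of KYSE180, 1537 to 1569.8 in siCont and 914 to 1009 in siTP63 libraries, and 593 to 693 in cont and 363 to 452 in BRDT-OE libraries. In TE6 it was 429 to 462 with siCont, 429 to 438 with siBRDT and 263 to 308 with siTP63, and in KYSE150 410 to 536 with siCont and 243 to 268 with siTP63. Nearly all of it was FBLN1, with 156 to 1922 reads, while LUM, PDGFRB, PDGFRA, DCN, THY1 and FAP had at most 43, 16, 10, 8, 6 and 1 reads in any library. The summed endothelial markers were 24 to 36 with siCont and 137 to 139 with siTP63 in KYSE180, 51 to 67 and 91 to 109 in TE6, and 12 to 30 and 91 to 153 in KYSE150. With siBRDT in KYSE180 they were 28.7 to 34.1 beside 34.3 to 41.7. With siBRDT in TE6 and with BRDT-OE treated and control libraries overlapped. The cause of these differences was not tested. The authors' own pathway result on matrix genes came from the KYSE180 siBRDT libraries, so the falls there are not independent evidence of a direction.

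**Figure D1:**
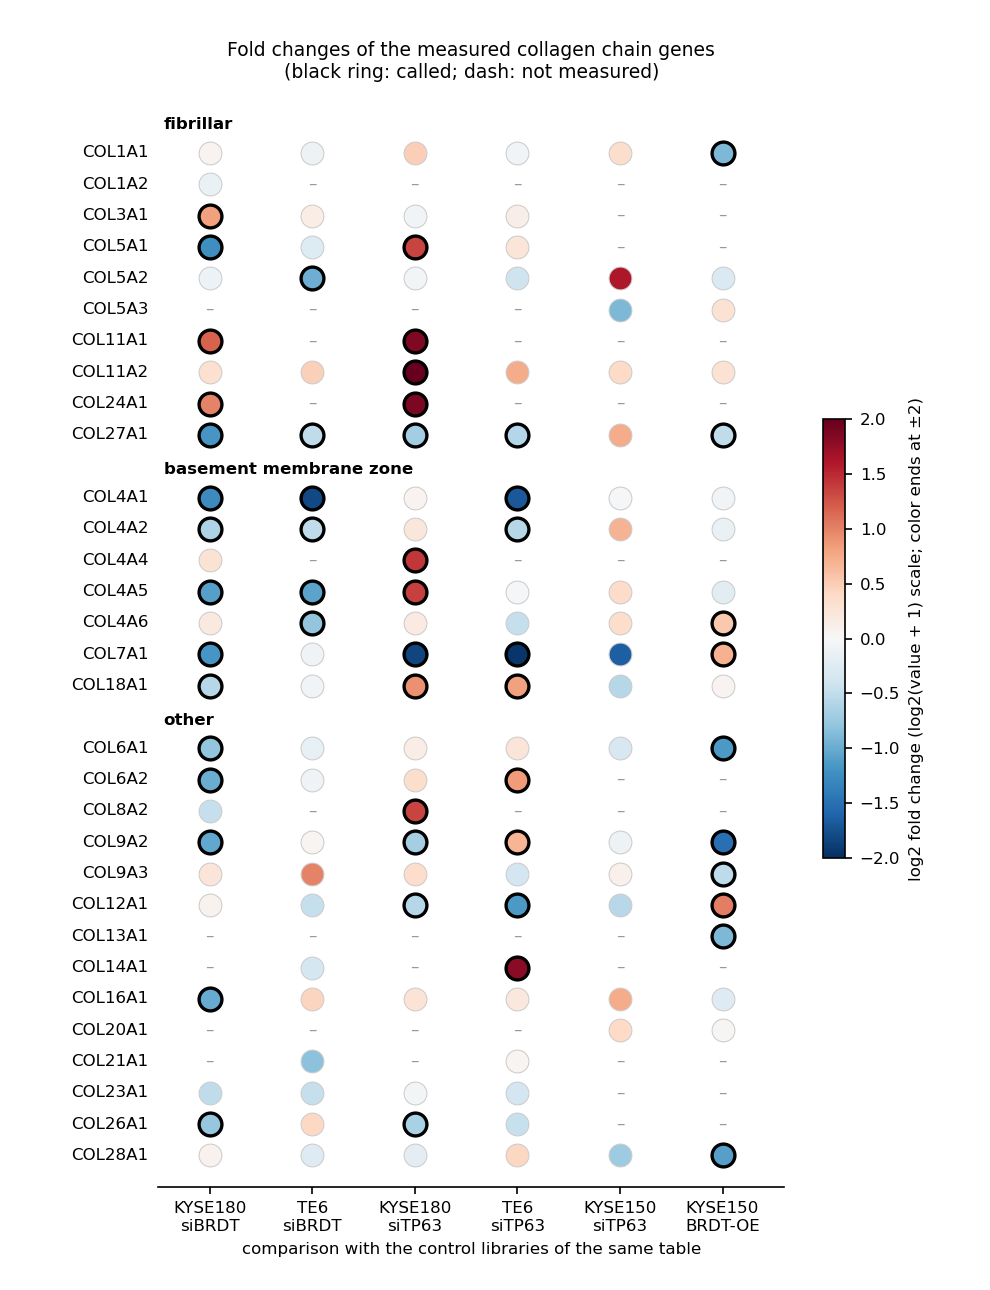
Log2 fold changes on the log2(value + 1) scale of the 31 measured collagen chain genes (rows, by group) in the 6 comparisons with controls (columns), as color from blue (lower than control) to red (higher), with color ends at -2 and 2. Black rings mark called genes and dashes genes below the minimum mean of 10. The KYSE180 siBRDT column holds 12 blue ringed genes, the KYSE180 siTP63 column holds 8 red ones, and the KYSE150 siTP63 column holds 0 rings.

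COL4A1, which forms the most widespread basement membrane network with COL4A2, had the largest fall under siBRDT of the members tested in both BRDT-positive lines. In KYSE180 its values were 2440.2, 2463 and 2688 with siCont and 978, 1037 and 1126 with siBRDT, and in TE6 1836 and 1749 with siCont, 449 and 587 with siBRDT and 516 and 596 with siTP63. No treated library reached the lowest of its controls. The log2 fold change (± SE) was -1.27 ± 0.07 in KYSE180 (2.42-fold lower, adjusted p = 1.8e-09), and in TE6 -1.80 ± 0.14 with siBRDT (adjusted p = 2e-06) and -1.69 ± 0.14 with siTP63 (adjusted p = 1.2e-06). In KYSE180 siTP63 left values of 599.7 and 744 beside controls of 676 and 611, a difference of 0.06 ± 0.15 (adjusted p = 0.77) with overlapping groups. KYSE150 gave -0.03 with siTP63 and -0.07 with BRDT-OE (adjusted p of 0.97 and 0.62).

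COL4A2, transcribed from the facing start, moved the same way but less. Its KYSE180 values were 3349, 3253 and 3457 with siCont and 2109.7, 2309.7 and 2138 with siBRDT (-0.62 ± 0.06, adjusted p = 8e-07). The TE6 values were 1849 and 1731 with siCont, 1081 and 1450.2 with siBRDT and 1131 and 1290.3 with siTP63. The groups did not overlap, and the log2 fold changes of -0.51 ± 0.13 and -0.57 ± 0.13 (adjusted p of 0.0076 and 0.0037) lay just past the fold-change limit. The siBRDT call in TE6 was lost without siBRDT replicate 1 (-0.30), siCont replicate 1 (-0.47) or siCont replicate 2 (-0.56), and with upper-quartile rescaling (-0.41), edgeR (-0.49) and DESeq2 (-0.48). The siTP63 call was lost without siTP63 replicate 1 (-0.47) or siCont replicate 1 (-0.52), and with rescaling (-0.48). In the other comparisons COL4A2 was not called, at 0.22 in KYSE180 with siTP63, 0.69 in KYSE150 with siTP63 and -0.13 with BRDT-OE.

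The log2 ratio of COL4A1 to COL4A2 in each library, from which the size factor drops out, showed this inequality too. In TE6 it was -0.01 and 0.01 with siCont, -1.27 and -1.31 with siBRDT and -1.13 and -1.11 with siTP63, shifts of -1.29 and -1.13. In KYSE180 it was -0.46, -0.40 and -0.36 with siCont and -1.11, -1.15 and -0.92 with siBRDT, a shift of -0.66. Control and treated libraries did not overlap in any of these. A two-sided exact permutation test gave p = 0.10 in KYSE180 and p = 0.33 in both TE6 comparisons, which are the smallest values that 3 against 3 and 2 against 2 libraries allow. The siCont libraries of the other KYSE180 experiment stood at -1.36 and -1.37, lower than every siBRDT library named above, and siTP63 there gave -1.65 and -1.41, a shift of -0.17 without overlap. In KYSE150 the ratio was -1.01 and -0.61 with siCont and -1.31 and -1.76 with siTP63, a shift of -0.72 without overlap, though neither gene was called there. The exact permutation p was again 0.33 for siTP63 in KYSE180 and KYSE150. BRDT-OE (-0.91, -0.83 and -0.94) and cont (-1.06, -0.84 and -0.96) overlapped (exact permutation p = 0.40). Both genes overlap on opposite strands at their starts, and the library kit does not mark strand, so reads within the overlap could have been assigned to either or left out.

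**Figure D2:**
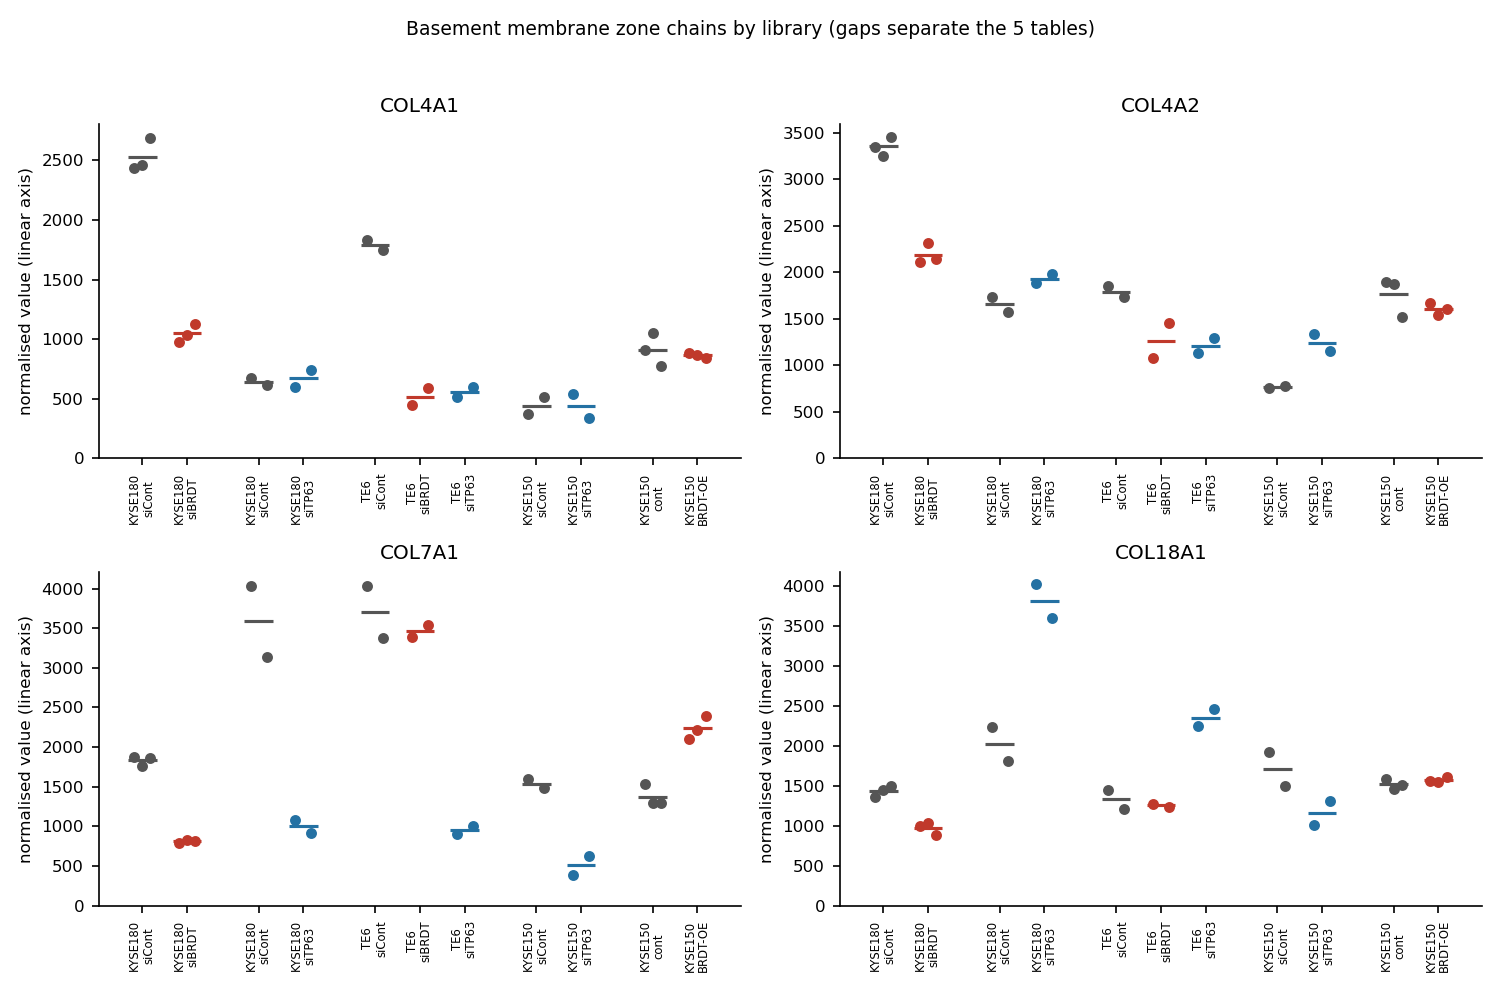
Normalised values (linear axes from 0) of COL4A1, COL4A2, COL7A1 and COL18A1 in all 26 libraries, with 1 point a library and a line at the group mean; grey is control, red siBRDT or BRDT-OE, blue siTP63, and gaps separate the 5 separately normalised tables. COL4A1 is lower with siBRDT in KYSE180 and TE6, and COL7A1 is lower with siTP63 in all 3 lines (not past the test in KYSE150) and higher with BRDT-OE.

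COL4A5 and COL4A6, whose product is found in the basement membrane of the skin, came apart as well. In KYSE180 COL4A5 had values of 1463, 1483 and 1543 with siCont and 635, 712 and 754 with siBRDT (-1.10 ± 0.07, adjusted p = 1.4e-08). COL4A6 had 1570.5, 1649 and 1633 and 1713, 1815 and 2050.1, a difference of 0.20 ± 0.07 that was under the fold-change limit (adjusted p = 0.027). One gene of the pair was thus lower in every siBRDT library while the other was slightly higher in each. In TE6 siBRDT both fell, COL4A5 from 519 and 475 to 228 and 246 (-1.07 ± 0.13, adjusted p = 3.9e-05) and COL4A6 from 412 and 356 to 187 and 264 (-0.78 ± 0.17, adjusted p = 0.0024).

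Under siTP63 in KYSE180 COL4A5 rose, from 596 and 573 to 1381 and 1664 (1.37 ± 0.14, adjusted p = 1.5e-08), beside a COL4A6 difference of 0.17 ± 0.14 (adjusted p = 0.31). In TE6 the same comparison gave -0.02 for COL4A5 and -0.47 for COL4A6, neither called. BRDT-OE raised COL4A6 from 158, 162 and 103 to 188, 208 and 208 (0.54 ± 0.17, adjusted p = 0.021) with COL4A5 at -0.23 (adjusted p = 0.13). This COL4A6 call was lost without cont replicate 3 (0.33), BRDT-OE replicate 2 (0.51) or BRDT-OE replicate 3 (0.51), and with rescaling (0.50), edgeR (0.48) and DESeq2 (0.50). In KYSE150 with siTP63 COL4A5 was 0.38 and COL4A6 0.37, neither called.

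The log2 ratio of COL4A5 to COL4A6 was -0.10, -0.15 and -0.08 in siCont and -1.43, -1.35 and -1.44 in siBRDT libraries of KYSE180, and -0.76 and -0.76 in siCont and 0.43 and 0.46 in siTP63 libraries. The shift was -1.30 with siBRDT and 1.20 with siTP63, in neither case with overlap between treated and control libraries. In KYSE150 the ratio was 1.42, 1.21 and 1.62 in cont and 0.74, 0.70 and 0.49 in BRDT-OE libraries, a shift of -0.77. The exact permutation p was 0.10 in both designs of 3 against 3 and 0.33 in the design of 2 against 2, again the smallest possible. In TE6 the shifts were -0.28 with siBRDT and 0.46 with siTP63. The remaining measured type IV gene, COL4A4 of the kidney and cochlear network, was low and rose with siTP63 in KYSE180 from 11 and 13.3 to 41.4 and 28.6 (1.43 ± 0.37, adjusted p = 0.0020). That call was lost without siTP63 replicate 1 (1.17).

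**Figure D3:**
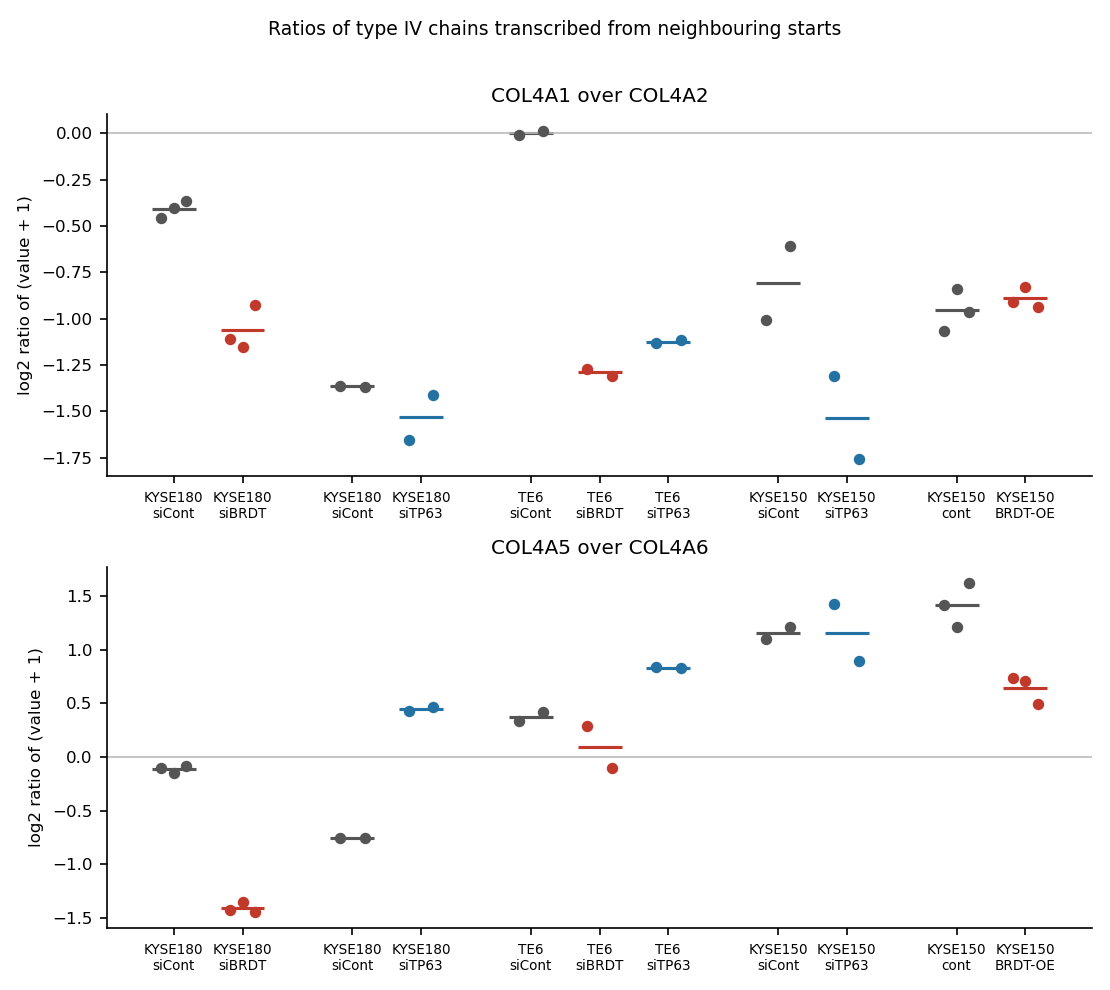
Log2 ratio of the normalised values in each of the 26 libraries for COL4A1 over COL4A2 (top) and COL4A5 over COL4A6 (bottom). Nothing was added to the values, although the axis label names value + 1. Each point is 1 library and each line a group mean, with control in grey, siBRDT or BRDT-OE in red and siTP63 in blue. The siCont TE6 libraries sit at -0.01 and 0.01 in the top panel, above all 4 treated TE6 libraries, and the bottom panel shows the KYSE180 ratio lower with siBRDT and higher with siTP63.

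COL7A1, the chain of anchoring fibrils, fell with siTP63 in both lines with calls and rose with BRDT-OE. With siTP63 its values went from 4031 and 3139 to 1081 and 922 in KYSE180 (-1.83 ± 0.15, 3.56-fold lower, adjusted p = 2.8e-10). In TE6 they went from 4031 and 3370.5 to 903 and 1011 (-1.95 ± 0.11, 3.86-fold lower, adjusted p = 8.3e-08). The KYSE150 values of 1596 and 1482 with siCont and 382 and 632 with siTP63 did not overlap either, but the fold change of -1.64 ± 0.28 did not pass (limma adjusted p = 0.11). COL7A1 was the 1 collagen gene called in that comparison with DESeq2 (-1.60), and also with the replicate number as a block (-1.64). On leaving out each library its fold change ranged from -2.01 to -1.28.

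siBRDT split the lines at COL7A1. In KYSE180 the values were 1877, 1761 and 1861 with siCont and 787, 824 and 817 with siBRDT (-1.18 ± 0.06, adjusted p = 1.4e-09). In TE6 siBRDT gave 3387 and 3536, within the range of the 2 control libraries (-0.09 ± 0.11, adjusted p = 0.52). BRDT-OE in KYSE150 raised COL7A1 from 1529, 1297 and 1296 to 2107, 2218 and 2395 (0.71 ± 0.09, adjusted p = 9.9e-05).

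COL18A1, a proteoglycan-type collagen whose end fragment is endostatin, rose where COL7A1 fell under siTP63. In KYSE180 it went from 2235 and 1805 to 4018 and 3599.6 (0.92 ± 0.15, adjusted p = 8.7e-06), and in TE6 from 1447 and 1212 to 2241 and 2452 (0.82 ± 0.11, adjusted p = 6.6e-05). siBRDT lowered it in KYSE180 from 1359, 1443 and 1497 to 992, 1029 and 879 (-0.57 ± 0.07, adjusted p = 1e-05). In TE6 siBRDT gave 1276 and 1236, inside the control range (-0.08 ± 0.11, adjusted p = 0.60). KYSE150 gave 1920.0 and 1497 with siCont and 1006 and 1304 with siTP63 (-0.57 ± 0.24, adjusted p = 0.29), and 0.05 with BRDT-OE (adjusted p = 0.57). COL18A1 overlaps SLC19A1 and antisense transcripts on the other strand, whose reads this kit cannot separate.

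The fibril-nucleating type V chains responded separately. COL5A1 was high in KYSE180 only, with a table mean of 15 in TE6 and under 10 in KYSE150. There siBRDT took it from 420.2, 459 and 498 to 175, 176 and 236 (-1.24 ± 0.12, adjusted p = 4.5e-07), and siTP63 from 245 and 195 to 561 and 562 (1.36 ± 0.16, adjusted p = 9.2e-08). The directions were opposite, each group apart from its own controls. COL5A2, its partner, stayed within a log2 fold change of -0.12 and -0.06 in the same comparisons (adjusted p of 0.11 and 0.74).

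In TE6 it was COL5A2 that moved. Its values were 981 and 1010.4 with siCont, 493 and 521 with siBRDT (-0.97 ± 0.11, adjusted p = 2.9e-05) and 721 and 781 with siTP63 (-0.41 ± 0.11, too small to be called, adjusted p = 0.0079). In KYSE150 COL5A2 was low, at 4.45 and 10.6 with siCont and 29.1 and 18.6 with siTP63 (1.61 ± 0.56, adjusted p = 0.23), and at -0.29 with BRDT-OE (adjusted p = 0.40).

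COL27A1, a fibrillar chain of cartilage, was the member lowered in most comparisons, 5 of 6. In KYSE180 siBRDT took it from 584, 518 and 573 to 213, 266 and 262 (-1.18 ± 0.10, adjusted p = 1.2e-07) and siTP63 from 359 and 385 to 242 and 217 (-0.70 ± 0.16, adjusted p = 0.00060). Its reads were 228 and 375 with siCont and 315 and 273 with siTP63, so the siTP63 fall depends in size on the size factors. TE6 had 185 and 178 with siCont, 126 and 130.2 with siBRDT (-0.50 ± 0.16, adjusted p = 0.020) and 120.1 and 123 with siTP63 (-0.58 ± 0.16, adjusted p = 0.0085). BRDT-OE in KYSE150 lowered it too, from 114, 111 and 89.9 to 65.3, 80.3 and 74.5 (-0.51 ± 0.15, adjusted p = 0.018). A BRDT knockdown and a BRDT overexpression, in different lines, were thus both followed by lower COL27A1.

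The last 3 COL27A1 calls were near the fold-change limit. The TE6 siBRDT call was lost without siBRDT replicate 1 (-0.48), siCont replicate 1 (-0.47) or siCont replicate 2 (-0.53), and with rescaling (-0.40), edgeR (-0.49) and DESeq2 (-0.48). The TE6 siTP63 call was lost without siCont replicate 1 (-0.55), siCont replicate 2 (-0.61) or siTP63 replicate 1 (-0.56), and with rescaling (-0.49). The BRDT-OE call was lost without BRDT-OE replicate 1 (-0.43), cont replicate 1 (-0.45) or cont replicate 2 (-0.46).

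**Figure D4:**
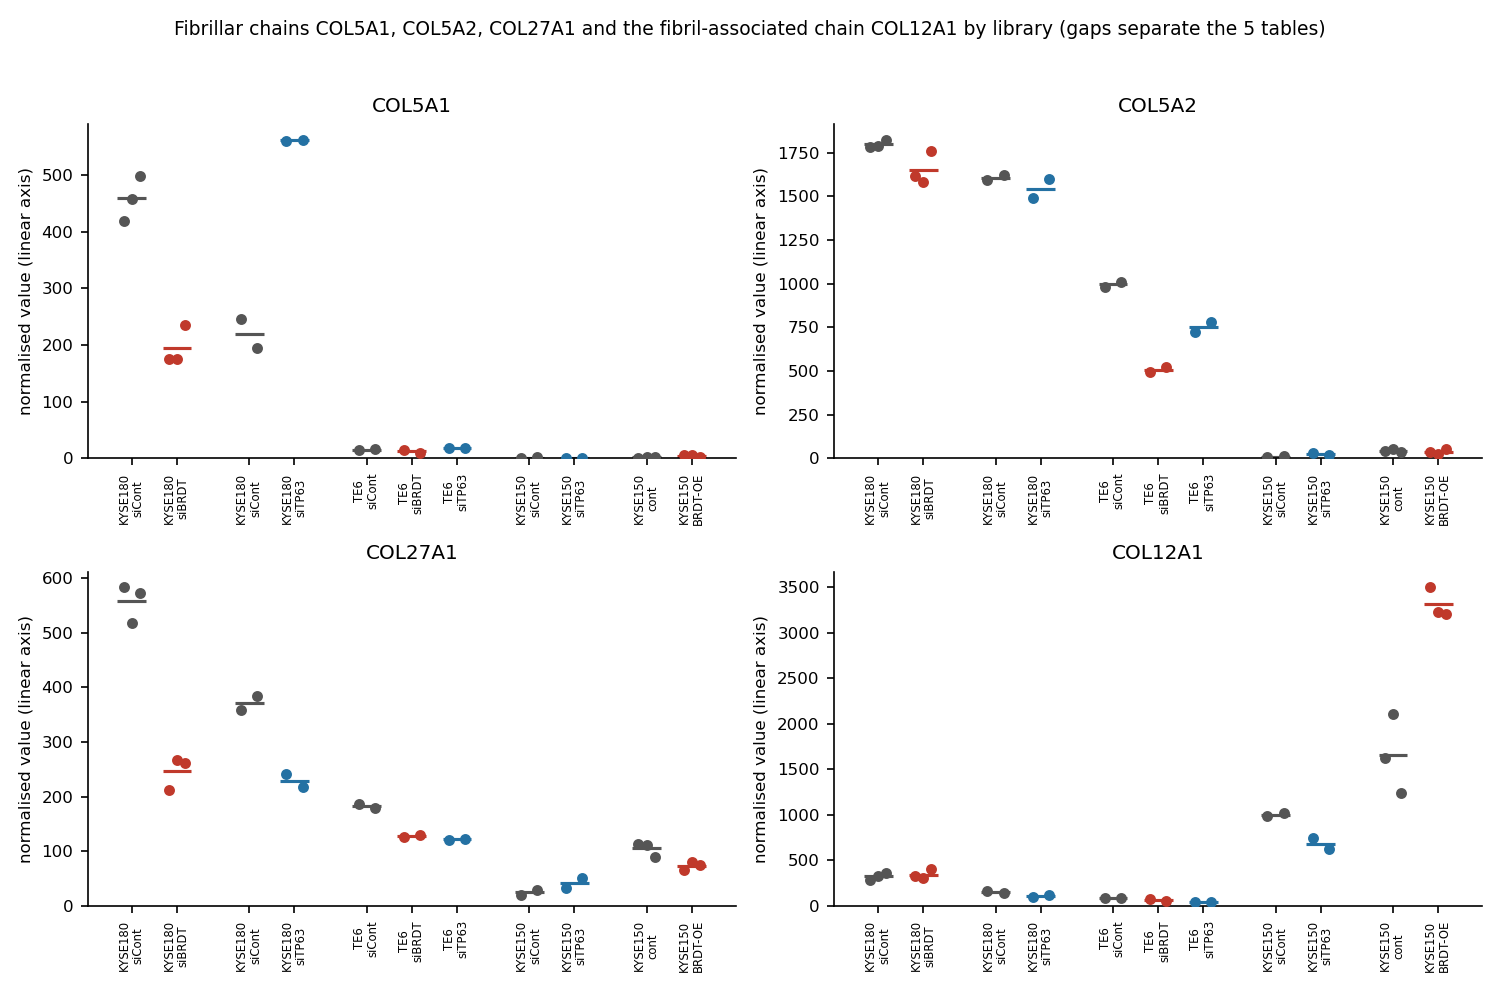
Normalised values (linear axes from 0) of the fibrillar chains COL5A1, COL5A2 and COL27A1 and of COL12A1 in all 26 libraries, with 1 point a library and a line at the group mean; grey is control, red siBRDT or BRDT-OE, blue siTP63, and gaps separate the 5 separately normalised tables. COL5A1 is lower with siBRDT and higher with siTP63 in KYSE180, and COL12A1 is highest in KYSE150, at 3501, 3231 and 3203 with BRDT-OE.

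Some fibrillar chains at low values in KYSE180 rose and others were not called. With siBRDT COL11A1, a cartilage fibril chain, went from 17.2, 10.6 and 14.7 to 35.1, 30.1 and 33.1 (1.18 ± 0.25), COL24A1, a bone fibril chain, from 29.4, 24.9 and 17.7 to 45.8, 52.1 and 45.3 (0.99 ± 0.22), and COL3A1 of reticular fibres from 66.2, 49.1 and 40.2 to 108, 83.4 and 81.8 (0.82 ± 0.19). The adjusted p were 0.00091, 0.0012 and 0.0016, and treated and control libraries did not overlap. COL11A2 (0.32 ± 0.31) and COL1A2 (-0.13 ± 0.18) were not called with siBRDT (adjusted p of 0.39 and 0.57). With siTP63 COL11A1 and COL24A1 rose by 1.87 ± 0.32 and 1.88 ± 0.36, and COL11A2 went from 26.7 and 27.7 to 129.6 and 100.1 (2.03 ± 0.25, 4.07-fold, adjusted p = 2.2e-07). Adjusted p for COL11A1 and COL24A1 were 2.3e-05 and 8.5e-05, and COL3A1 was not called (-0.07 ± 0.26, adjusted p = 0.82). COL1A1 was called with BRDT-OE only, from 125, 139.6 and 130.4 to 64.5, 73.6 and 71.7 (-0.90 ± 0.13, adjusted p = 0.00030). With siTP63 in KYSE180 it was 0.49 ± 0.15 (adjusted p = 0.0069), just under the fold-change limit with limma and past it with edgeR and DESeq2.

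Among the fibril-associated chains, COL12A1, which coats type I fibrils, was highest in KYSE150. BRDT-OE raised it from 1629, 2105 and 1241 to 3501, 3231 and 3203 (1.03 ± 0.15, 2.04-fold, adjusted p = 0.00032). siTP63 lowered it in TE6, from 86.2 and 86.1 to 38.5 and 38.5 (-1.14 ± 0.22, adjusted p = 0.00091), and in KYSE180 from 164 and 144 to 92.8 and 114 (-0.57 ± 0.20, adjusted p = 0.015). KYSE150 with siTP63 gave 742 and 624 beside 986 and 1019 in controls (-0.56 ± 0.20, adjusted p = 0.23). The KYSE180 call was lost without siCont replicate 1 (-0.48) or siTP63 replicate 1 (-0.42), and with rescaling (-0.50), DESeq2 (-0.55) or no filter on low values (-0.57). With siBRDT it was 0.07 in KYSE180 and -0.47 in TE6 (adjusted p of 0.63 and 0.096).

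COL9A2, a type IX chain of cartilage fibrils, fell in 3 comparisons. siBRDT in KYSE180 took it from 179, 122 and 153 to 82.0, 66.0 and 69.6 (-1.04 ± 0.15, adjusted p = 3.2e-05), and BRDT-OE in KYSE150 from 193, 156 and 155 to 61.0, 62.6 and 50.6 (-1.51 ± 0.15, adjusted p = 3.1e-05). siTP63 lowered it in KYSE180 (-0.68 ± 0.20, adjusted p = 0.0053) and raised it in TE6 (0.68 ± 0.26, adjusted p = 0.044). The first of these calls was lost without siTP63 replicate 2 (-0.52) and the second without siCont replicate 2 (0.39) or siTP63 replicate 2 (0.42), and with the replicate block, DESeq2 and no filter on low values. COL9A3 fell with BRDT-OE from 613, 585 and 635 to 449.6, 412 and 409 (-0.53 ± 0.08, adjusted p = 0.00046), a call lost without cont replicate 3 (-0.50).

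The type VI chains COL6A1 and COL6A2 fell with siBRDT in KYSE180, from 258, 287 and 269 to 158, 163 and 148 (-0.79 ± 0.10, adjusted p = 6.1e-06) and from 123, 145 and 135 to 80.9, 60.2 and 60.9 (-1.0 ± 0.15, adjusted p = 3.4e-05). In TE6 siBRDT gave -0.17 and -0.09, neither called, while siTP63 raised COL6A2 from 193 and 154 to 293 and 330.0 (0.85 ± 0.17, adjusted p = 0.0010). BRDT-OE lowered COL6A1 from 166, 142 and 152 to 112, 47.4 and 60.5 (-1.15 ± 0.26, adjusted p = 0.0040), with 1 of the BRDT-OE libraries well above the other 2.

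The other called members belong to several further types. In KYSE180 siBRDT lowered COL16A1, a fibril-associated chain, and COL26A1, a little-studied chain, with log2 fold changes of -1.0 and -0.77 (adjusted p of 0.00014 and 2.3e-06). siTP63 lowered COL26A1 as well, at -0.65 (adjusted p = 0.00080), a call lost without siTP63 replicate 2 (-0.48), and raised COL8A2, a network-forming chain of corneal membranes, from 29.9 and 38.0 to 85.1 and 89.8 (1.35 ± 0.25, adjusted p = 6.7e-05). In TE6 siTP63 raised COL14A1, a fibril-associated chain, from 27.3 and 24.1 to 92.9 and 90.3 (1.80 ± 0.28, 3.47-fold, adjusted p = 0.00019). BRDT-OE lowered COL28A1, known from peripheral nerve, from 77.7, 65.1 and 66.9 to 36.1, 35.5 and 25.3 (-1.10 ± 0.20, adjusted p = 0.0010) and the transmembrane chain COL13A1 from 33.4, 47.2 and 31.8 to 18.1, 23.7 and 16.9 (-0.90 ± 0.25, adjusted p = 0.012). The 5 measured members called in no comparison were the fibrillar chains COL1A2 and COL5A3 and the other chains COL20A1, COL21A1 and COL23A1.

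The summed value of all 43 members was dominated by basement membrane chains. In KYSE180 it was 17941 ± 379 with siCont and 12122 ± 296 with siBRDT (SD, n = 3 each), of which the basement membrane zone held 12071 to 12702 and 7243 to 7789.5, ranges that do not overlap. The TE6 sum was 11967 ± 938 with siCont, 8869 ± 473 with siBRDT and, in siTP63 libraries, 8322 ± 581 (SD, n = 2 a group). With siTP63 the KYSE180 sum was 14982 ± 81.9 beside 14099 ± 1332 with siCont, ranges that overlap, while as a share of all reads it was 1245 to 1300.4 RPM beside 794 to 869 RPM. In KYSE150 it was 5898 ± 361 with siTP63 and 7139 ± 493 with siCont (SD, n = 2 each). In TE6 the summed fibrillar chains were 1510.0 to 1547 with siCont and 957 to 1024 with siBRDT, and the summed other chains were 892 to 985 with siCont and 1172 to 1292 with siTP63. The KYSE150 sum was 9381 ± 862 with cont and 11214 ± 209 with BRDT-OE (SD, n = 3 each), with other chains at 2516 to 3330.5 and 3996 to 4389.8. Among the other chains COL12A1 alone went from a mean of 1658 to 3312. Of the 8 other chains tested there, 5 were called lower and 1 higher.

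The comparison of siTP63 with siCont in KYSE150 gave 0 calls over all 12335 genes with limma and with edgeR, 2194 and 2187 genes at an unadjusted p under 0.05, and 462 calls with DESeq2. Replicates correlated least in this experiment (Pearson's r of 0.971 between the siTP63 libraries across genes). Of the 18 members tested, 8 had a negative value, and the most negative and most positive were COL7A1 and COL5A2, given above.

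Genes that make, cross-link or bind collagen were read from a list of 39 symbols, all present. In KYSE180 siBRDT lowered 17 of 31 tested and raised 0, against 15.8% and 14.5% of all genes, with a median of -0.53. SERPINH1, the collagen chaperone HSP47, fell from 5885 ± 234 to 2361 ± 127 (-1.32 ± 0.06, adjusted p = 4.6e-10), as did P4HB of the prolyl hydroxylase (-0.56), CRTAP of the prolyl 3-hydroxylation complex (-1.0) and the collagen receptor chain ITGA2 (-1.11), with adjusted p of 2.6e-06, 1e-08 and 1.4e-06. In TE6 siBRDT lowered 10 of 29 and raised 1, against 18.1% and 15.6% of all genes, with a median of -0.24, and SERPINH1 fell from 4561 ± 173 to 2802 ± 365 (-0.71 ± 0.10, adjusted p = 0.00017). CRTAP, the receptor kinase DDR1 and the glycosyltransferase COLGALT1 were lower, at -0.80, -0.94 and -0.50 (adjusted p of 0.00011, 0.00017 and 0.0030). The COLGALT1 value lay barely past the fold-change limit.

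With siTP63 the list gave 6 lower and 6 higher of 30 in KYSE180, or 20% each way, which is under the 25.7% and 23.6% of all genes. In TE6 it gave 12 lower and 3 higher of 29, against 20.6% and 18.3% of all genes. In KYSE180 P3H3, a prolyl 3-hydroxylase family member, was at -1.96, the cyclophilin PPIB at -0.83, COLGALT1 at -0.54 and the integrin chain ITGB1 at 1.25 (adjusted p of 6.5e-11, 2e-05, 0.0033 and 2.8e-07). In TE6 ITGB1 went the other way, at -1.33, with DDR1 at -0.82, COLGALT1 at -0.68 and the lysyl hydroxylase PLOD2 at -0.66 (adjusted p of 0.00030, 0.00032, 0.00030 and 0.0022). BRDT-OE lowered 4 of 26 and raised 1, no larger a share than the 16% and 10.5% of all genes. Among them LOXL4, a lysyl oxidase relative, was lower at -2.55, the tolloid-like protease TLL2 at -0.89 and DDR1 at -0.71, while ITGA2 was higher at 0.69 (adjusted p of 7.8e-06, 0.019, 0.00014 and 0.0033). In KYSE150 siTP63 called 0 of 25 with limma and 1 with DESeq2.

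In order to compare both knockdowns in TE6 directly, siBRDT libraries were set against siTP63 libraries. Members lower with siBRDT numbered 6 of 23 and those higher 3, against 14.1% and 14.3% (28.4% called) of all genes. COL7A1 was 3.62-fold higher with siBRDT (1.86 ± 0.11, adjusted p = 2.2e-07), with values of 3387 and 3536 beside 903 and 1011. COL14A1 (-2.14 ± 0.28), COL4A5 (-1.05 ± 0.13), COL6A2 (-0.93 ± 0.17), COL18A1 (-0.90 ± 0.11) and COL5A2 (-0.57 ± 0.11) were lower with siBRDT (adjusted p from 4.7e-05 to 0.0015). COL28A1 at -0.69, COL12A1 at 0.67 and COL9A3 at 1.36 were also called (adjusted p of 0.028, 0.029 and 0.031). These 3 calls were lost with DESeq2, with no filter on low values, and without siBRDT replicate 1 (-0.58, 0.53 and 1.03), siCont replicate 2 (-0.69, 0.67 and 1.36), siTP63 replicate 1 (-0.59, 0.67 and 1.41) or siTP63 replicate 2 (-0.79, 0.67 and 1.31), those of COL28A1 and COL12A1 also without siCont replicate 1. COL4A1 was not called, with 449 and 587 beside 516 and 596.

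KYSE180 and TE6 were then compared in their response, as a limma contrast of the within-table fold changes at an adjusted p under 0.05. Of 21 members measured in both lines, 12 differed under siBRDT, 9 with a lower and 3 with a higher fold change in KYSE180, against 19.4% and 22.5% (41.9% called) of all 12612 genes. Rescaling kept these 12 members but turned the split of all genes from 2445 lower and 2835 higher to 3039 and 2153. COL7A1 was lower in KYSE180 only (-1.18 and -0.09, difference -1.09 ± 0.12, adjusted p = 3.9e-06), and COL5A2 was lower in TE6 (difference 0.85 ± 0.12, adjusted p = 2.4e-05). Under siTP63 8 of 21 differed, 1 lower and 7 higher in KYSE180, against 28.8% and 26.2% of all 12780 genes. Both directions together, this was a smaller share than the 55% of all genes called. COL4A1 (0.06 and -1.69, difference 1.75 ± 0.21, adjusted p = 2e-06) and COL4A5 (1.37 and -0.02, difference 1.39 ± 0.19, adjusted p = 6.6e-06) had the largest of these 8 differences. Against KYSE150, where siTP63 called no member, 1 of 16 members was higher in KYSE180 (0.774% of genes lower, 0.849% higher, 1.62% called), and 3 were lower and 1 higher in TE6 (2.2% lower, 1.66% higher, 3.86% called). Of those 4, only 2 passed without either TE6 siBRDT library, which shares the TE6 fit, COL4A1 (-1.66) and COL5A2 (-2.02) being lost. COL7A1 fell in KYSE180 and TE6, and its difference of 0.11 ± 0.19 did not pass (adjusted p = 0.64).

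**Figure D5:**
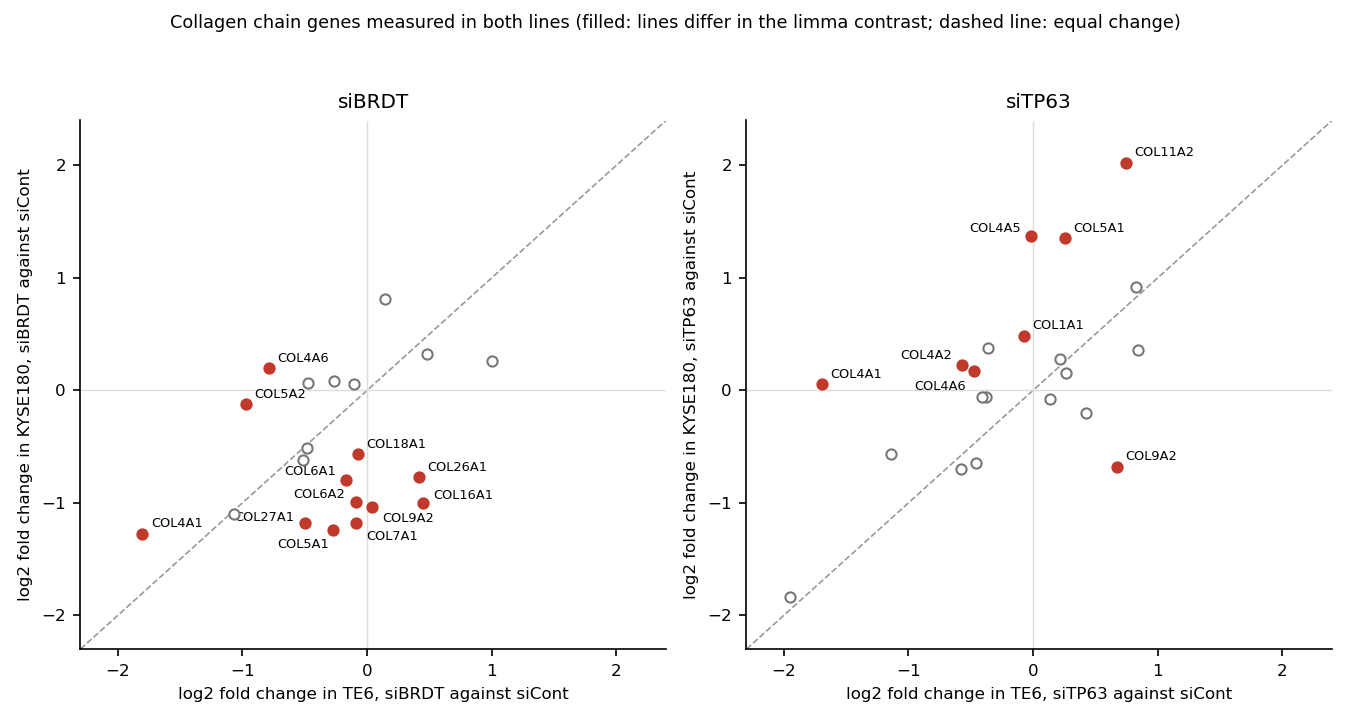
Log2 fold changes of the 21 collagen chain genes measured in both lines, TE6 on the x axis and KYSE180 on the y axis, for siBRDT (left) and siTP63 (right); filled points are genes whose fold changes differ between lines in the limma contrast (12 on the left, 8 on the right), open points are the rest, and the dashed line marks equal change. Most filled points on the left lie below the line, and all but COL9A2 on the right lie above it.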

How the data were processed

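RNA of 26 libraries in 11 groups was prepared with a kit that does not mark strand. The authors aligned reads to hg38 with STAR 2.6.0, counted them per gene with HTSeq 0.11.2 and deposited, for 5 experiments, signal in the form of read counts divided by DESeq2 1.24.0 size factors per library. Dividing by the step between values gave whole reads for 100% of values (tolerance 0.01). Values were analysed as log2(value + 1), on which scale low genes show understated fold changes, over genes with a table mean of at least 10, with limma 3.58.1 (trended variance, R 4.3.3), all 3 TE6 groups in 1 fit. P-values were adjusted over all genes tested by the Benjamini-Hochberg method, and calls needed an adjusted p under 0.05 and a log2 fold change of 0.5 in size, without the latter for differences between lines. Values are mean ± SD for levels and ± SE for fold changes. Alternatives used edgeR 4.0.16 (quasi-likelihood) and DESeq2 1.42.0 on recovered reads, among others. Scripts were tested on simulated data.

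Every collagen chain gene called was named, and the 8 highest were given in all 6 comparisons. From the synthesis and receptor list, up to 4 called genes with the highest table mean were named per comparison. The members and lists were chosen with earlier results of these data known. Positions and overlaps are from GENCODE 44.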

Additional observations from a re-analysis of the deposited data

Results flagged for a closer look

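The values below stood out because a limma contrast of the fold changes of 2 cell lines under the same siRNA passed at an adjusted p under 0.05. Each difference is the log2 fold change of the first line minus that of the second. Line and experiment cannot be told apart in these contrasts, since the lines stand in separately normalised tables.

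Under siBRDT, 9 members had a lower log2 fold change in KYSE180 than in TE6. Among basement membrane chains these were COL7A1 by -1.09 (adjusted p = 3.9e-06) and COL18A1 by -0.49 (adjusted p = 0.0066). Among fibrillar chains they were COL5A1 by -0.96 (adjusted p = 0.012) and COL27A1 by -0.68 (adjusted p = 0.0043). The others were COL16A1 (-1.45, adjusted p = 0.0045), COL26A1 (-1.19, adjusted p = 0.015), COL9A2 (-1.08, adjusted p = 0.0074), COL6A2 (-0.91, adjusted p = 0.0039) and COL6A1 (-0.62, adjusted p = 0.0028). Those higher in KYSE180 were COL4A6 (0.98, adjusted p = 0.00024), COL5A2 (0.85, adjusted p = 2.4e-05) and COL4A1 (0.53, adjusted p = 0.0090), the last of which fell in both lines and more in TE6. The COL5A1 difference did not pass without TE6 siBRDT replicate 1 (-0.66), nor with edgeR or DESeq2. Without TE6 siCont replicate 2 those of COL18A1 (-0.36), COL26A1 (-0.94) and COL9A2 (-0.79) did not pass.

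Under siTP63, the fold change in KYSE180 exceeded that in TE6 for COL4A1 by 1.75 (adjusted p = 2e-06), COL4A5 by 1.39 (adjusted p = 6.6e-06), COL11A2 by 1.28 (adjusted p = 0.044) and COL5A1 by 1.10 (adjusted p = 0.015). The same held for COL4A2 (0.79, adjusted p = 0.0018), COL4A6 (0.64, adjusted p = 0.020) and COL1A1 (0.56, adjusted p = 0.035), while COL9A2 was lower by -1.35 (adjusted p = 0.0024). COL11A2 did not pass in most other settings, leave-one-library-out fits included (1.00 to 1.46). COL1A1 did not pass without siCont replicate 2 (0.47) or siTP63 replicate 1 (0.42) of KYSE180, nor without siCont replicate 1 (0.43) or siTP63 replicate 1 (0.44) of TE6. COL4A6 did not pass without KYSE180 siTP63 replicate 2 (0.53), TE6 siCont replicate 1 (0.54) or TE6 siTP63 replicate 1 (0.59). COL5A1 did not pass without KYSE180 siCont replicate 2 (0.94) or either KYSE180 siTP63 library (1.10).

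KYSE150 differed from the BRDT-positive lines under siTP63 in few members. COL18A1 was higher by 1.49 in KYSE180 (adjusted p = 0.049, 1 of 16 members, against 1.62% of all 11891 genes) and by 1.39 in TE6 (adjusted p = 0.020) than in KYSE150. It was 1 of 4 of 16 members that differed between TE6 and KYSE150, against 3.86% of all 11645 genes. The others were COL5A2 (-2.02, adjusted p = 0.041), COL4A1 (-1.66, adjusted p = 0.030) and COL4A2 (-1.26, adjusted p = 0.024). None of these 5 differences passed with the replicate block or without KYSE150 siCont replicate 1, and each was also lost without at least 3 other single libraries. Without either TE6 siBRDT library, which enters only through the shared TE6 fit, COL4A1 (-1.66) and COL5A2 (-2.02) did not pass.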

How the results depend on the processing

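The 26 called members gave 87 called values over all comparisons, of which 59 stayed called in the same direction under every alternative tried. They comprised upper-quartile rescaling, dropping the filter on low values, a pseudocount of 0.1, edgeR and DESeq2 on the reads recovered from the values, the replicate block, no fold-change limit, TE6 groups taken in pairs and leaving out each library. Of 1226 values of called genes under an alternative, 128 lost the call and 0 reversed. With no fold-change limit a call cannot be lost, so that setting is no test of how stable the calls are. Depth sets a floor of 3 reads (a normalised value of 1.99 to 4.72), so chains with a few reads cannot be ranked between groups, and with 2 libraries a group no single-gene permutation test can reach a p of 0.05.

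In KYSE150 with siTP63 the 0 collagen calls became 1 with DESeq2, 1 with the replicate block and 1 to 1 on leaving out each library, and the 0 synthesis and receptor calls became 1 with DESeq2 and 0 to 1 on leaving out each library. TP63 there passed with DESeq2 (-2.31), the replicate block (-2.34) and no filter (-2.34), and ranged from -2.63 to -2.06 on leaving out each library. Its same-numbered libraries deviated in opposite directions (r of -0.703), and pairing the libraries across numbers, chosen after seeing the data, gave 7 collagen and 8 synthesis calls and TP63 at -2.34. That pairing called 3400 of all 12335 genes, beside 462 with DESeq2 and 137 with the replicate block. In the other tables same-numbered libraries had deviations correlated at -0.0836 to 0.178, and in none with 3 pairs did every library correlate best with its own number, so the numbers were not taken as pairs. The replicate block moved no other count of members against controls by over 1.5 times. The differences from KYSE150 changed as well, from 1 to 4 with DESeq2 and to 0 with the block for KYSE180, and from 4 to 0 with the block for TE6, with ranges of 0 to 4 and 0 to 6 on leaving out each library. Counts ranged from 4 to 10 for siBRDT in TE6 and from 5 to 9 for KYSE180 minus TE6 under siTP63 on leaving out each library. The synthesis calls with BRDT-OE went from 5 to 13 with no fold-change limit.

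Sign changes occurred in uncalled values near 0. With rescaling COL7A1 (0.0102) and COL18A1 (0.025) in TE6 siBRDT, COL5A2 in KYSE180 siTP63 (0.015), COL4A5 in TE6 siTP63 (0.074) and COL4A1 in KYSE150 siTP63 (0.0045, and 0.0101 with edgeR) changed sign. On leaving out each library the ranges were -0.048 to 0.15 for COL12A1 in KYSE180 siBRDT, -0.22 to 0.038 for COL7A1 and -0.20 to 0.052 for COL18A1 in TE6 siBRDT, -0.10 to 0.21 for COL4A1 in KYSE180 siTP63 and -0.079 to 0.046 for COL4A5 in TE6 siTP63. They were -0.36 to 0.30 for COL4A1 and -0.014 to 0.77 for COL4A5 in KYSE150 siTP63, and -0.17 to 0.043 for COL4A1 with BRDT-OE. The cause of these changes was not tested.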
